A study of Mus musculus with 21 samples.

Results

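The post-translational clock regulators examined here were 8 genes, taken from the 53801 genes of the count table by their symbols: *Csnk1d*, *Csnk1e*, *Fbxw11*, *Btrc*, *Nampt*, *Sirt1*, *Usp2* and *Nono*. Their RNA was measured in IgA+ plasma cells (PCs) of the small intestine, sort-purified as CD138+ IgA+ cells from 21 C57BL/6 mice, with 1 library per mouse. All groups carried Arntl fl/fl, the floxed gene encoding Bmal1. The 12 control mice, littermates, lacked Cre and the 9 knockout mice carried 1 Mb1 Cre allele, in which the *Mb1* (*Cd79a*) locus drives Cre from an early stage of the B cell lineage, so that other lineages keep *Arntl*. Zeitgeber time (ZT) counts hours from lights on, and cells came from 6 control mice and 4 knockout mice at ZT0 and from 6 control mice and 5 knockout mice at ZT12. Ages were not given in the labels. *Xist* was at 329 CPM or more in 10 mice and at 3.51 CPM or less in 11, with both kinds in every group. Genotype was read from the sample titles, because 8 of the 9 samples titled as knockouts carry the control genotype in that field.

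The clock is a feedback loop in which Bmal1 and CLOCK drive transcription of the Period (PER) and Cryptochrome (CRY) repressors, and much of its timing is set after these proteins are made. Casein kinases 1 delta and epsilon (*Csnk1d*, *Csnk1e*) phosphorylate PER, and the F-box proteins β-TrCP1 and β-TrCP2 (*Btrc*, *Fbxw11*) bind phosphorylated PER and hand it to a ubiquitin ligase. NAMPT makes the NAD precursor that limits the NAD salvage pathway, SIRT1 is an NAD-dependent deacetylase of clock proteins, USP2 removes ubiquitin from clock proteins, and NONO is a DNA- and RNA-binding protein found in PER complexes. The enzymes act on protein, and RNA counts show neither their activity nor the state of their substrates.

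All 8 genes passed the count filter, which kept 20256 genes. None of the 8 passed the test (edgeR quasi-likelihood, Benjamini-Hochberg adjusted p under 0.05 over all genes) in any of the 5 comparisons: by time in control mice, by time in knockout mice, the difference between those changes, and by genotype at ZT0 and at ZT12. No member was called with DESeq2 or under any other setting, and the smallest adjusted p of any member under any edgeR or DESeq2 setting was 0.0992. At an unadjusted p under 0.05 the edgeR count was 1, *Sirt1* by genotype at ZT0. The 95% limits of the fold change stayed within 1.5-fold either way for 7 of the 8 genes in the time comparison of control mice, and *Usp2* was the exception.

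Libraries held 14471018 to 22785835 counts, and immunoglobulin genes took 51.5% to 63.6% of them. The 9 plasma cell markers summed to 282600 to 594400 CPM (counts scaled to library size with TMM factors), and summed markers of other cell types were lower, at 55.0 to 1074 CPM for epithelial, 12.5 to 32.1 for T cell, 15.3 to 94.3 for myeloid, 13.0 to 31.1 for other B cell and 23.7 to 47.1 for stromal lists. No marker was at 0 in all mice. The targeted gene *Arntl* ranged over 6.83 to 8.36 CPM in the control ZT0 group, 4.00 to 5.56 in control ZT12, 4.08 to 6.47 in knockout ZT0 and 3.11 to 4.93 in knockout ZT12. Its whole-gene count does not isolate the floxed part. By edgeR it was 0.68 lower on the log2 scale in knockout mice at ZT0 (SE 0.17, adjusted p = 0.926, unadjusted p = 0.000486), which did not pass the adjusted threshold. *Nr1d2*, a direct target of Bmal1, fell in knockout mice at both times, by 2.24 (SE 0.14, edgeR adjusted p = 8.82e-11) at ZT0 and by 2.55 (SE 0.13, edgeR adjusted p = 6.06e-13) at ZT12 on the log2 scale. *Cd79a*, the locus that holds Cre, fell by 1.21 at ZT0 and fell by 1.18 at ZT12 (SE 0.15 and 0.14, edgeR adjusted p = 9.08e-05 and 2.87e-05). The *Nr1d2* and *Cd79a* calls by genotype held in all 35 settings. In bulk RNA a lower level in every cell cannot be told apart from fewer expressing cells.

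Promoter sequence was available from RefSeq for 6 of the 8 genes (GRCm38.p6, 250 bases before to 50 bases after a start of transcription), and not for *Csnk1d* and *Btrc*. Both strands were searched for CACGTG (the E-box bound by Bmal1 and CLOCK), CACGTT, the D-box forms TTATGTAA and TTACGTAA, the cAMP response element TGACGTCA, and AGGTCA (the core element shared by REV-ERB and ROR receptors). The windows of the 2 genes with a match, both of the NAD pathway, are shown 5′ to 3′ on the gene's strand with the matches in capitals.
Sirt1 (chr10:63338986-63339285, minus strand): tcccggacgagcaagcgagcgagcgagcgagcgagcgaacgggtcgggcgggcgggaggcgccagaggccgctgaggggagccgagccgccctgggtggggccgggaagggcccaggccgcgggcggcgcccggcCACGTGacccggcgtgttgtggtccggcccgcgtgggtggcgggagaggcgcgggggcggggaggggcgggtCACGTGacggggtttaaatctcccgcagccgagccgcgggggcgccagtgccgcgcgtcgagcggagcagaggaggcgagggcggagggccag
Nampt (chr12:32820085-32820384, plus strand): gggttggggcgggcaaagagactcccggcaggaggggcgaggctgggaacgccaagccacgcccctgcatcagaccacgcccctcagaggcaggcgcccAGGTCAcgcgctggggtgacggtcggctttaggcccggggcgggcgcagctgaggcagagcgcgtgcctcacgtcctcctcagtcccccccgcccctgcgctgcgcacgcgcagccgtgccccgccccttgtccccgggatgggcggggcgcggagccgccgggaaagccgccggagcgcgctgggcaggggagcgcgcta
The *Sirt1* window holds CACGTG at positions -115 and -43 from the start, and the *Nampt* window holds AGGTCA at position -151. CACGTG occurs in 7.15% and AGGTCA in 16.3% of the 32851 windows of this length in the table. No window of *Csnk1e*, *Fbxw11*, *Usp2* or *Nono* holds any of the 6 strings. The windows of *Usp2*, *Csnk1e* and *Sirt1* lie well inside the gene coordinates given below, so the upstream ends of these genes were not searched.

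The levels of the 8 genes spanned a wider range than the groups of any one of them. Per kilobase of exon, *Nono* was highest with a mean of 16.6 CPM per kb ± 1.33 (SD, n = 21), and *Csnk1d* followed with 10.3 ± 0.814. *Fbxw11* had 8.72 ± 1.30, *Sirt1* 5.21 ± 0.713, *Csnk1e* 4.45 ± 0.434 and *Nampt* 3.71 ± 0.414 CPM per kb. *Usp2* had 2.03 ± 0.711 CPM per kb and *Btrc* was lowest with 0.372 ± 0.0613. Each gene lay above the next in this order in 19 to 21 of the 21 mice, so no neighbouring pair changed places in more than 2 mice. Among 14525 protein-coding genes, *Nono* stood above 91.6%, *Csnk1d* above 86.2%, *Usp2* above 54.8% and *Btrc* above 31.0%, per length. The *Btrc* model has 16908 exonic bases, against 4327 to 6590 for the other 7 genes, so its level per length depends most on which exons these cells use.

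**Figure D1:**
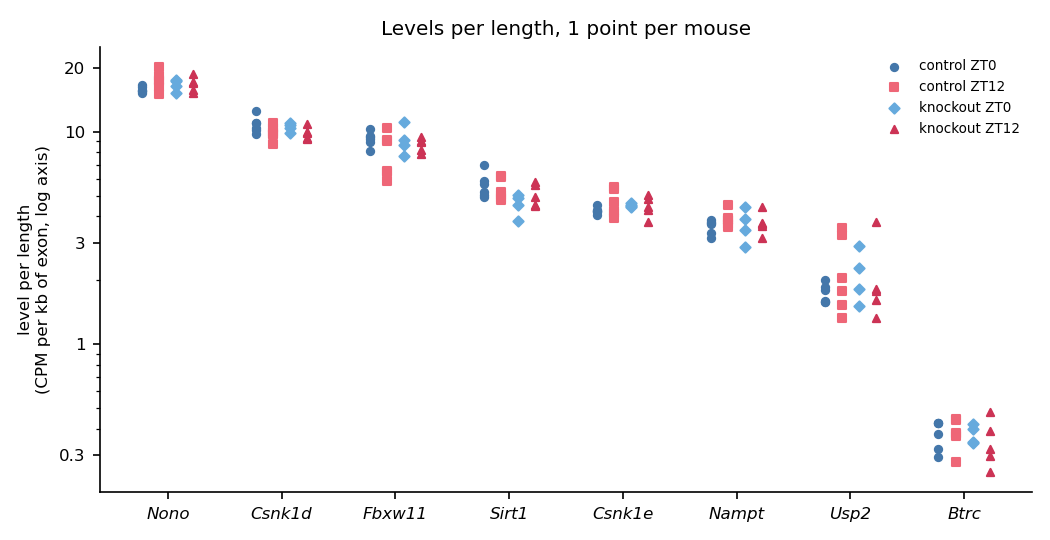
Level per length (CPM per kb of exon, log axis) of the 8 regulator genes, 1 point per mouse, with colour and shape giving the group. The genes run from *Nono*, mean 16.6, to *Btrc*, mean 0.372, and the 4 groups of a gene lie over each other.

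*Csnk1d* lies at chr11:120961749-120991330 (minus strand, GRCm38). In control mice its level had a lowest, median and highest value of 48.9, 53.6 and 62.6 CPM at ZT0, and of 43.9, 49.4 and 55.0 CPM at ZT12. Knockout mice had 55.3, 49.4, 53.9 and 52.3 CPM at ZT0, against 50.1, 49.5, 46.1, 46.9 and 54.7 CPM at ZT12. The ranges overlapped in every comparison, with control ZT0 replicate 1 the highest of all mice. The difference of control ZT12 from control ZT0 was -0.12 on the log2 scale (95% limits -0.29 and 0.04, edgeR adjusted p = 0.419). Those limits correspond to folds of 0.82 and 1.03. The change by time in knockout mice was -0.09 (limits -0.28 and 0.10, edgeR adjusted p = 0.827). An antisense gene, *Gm28192*, with 451 counts against 18037 for *Csnk1d* over all mice, overlaps it, and counting by strand was not stated.

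*Csnk1e* is the paralogue of *Csnk1d* and lies at chr15:79417856-79455566 (minus strand). Control mice had a lowest, median and highest level of 26.6, 27.9 and 29.9 CPM at ZT0, and of 25.9, 29.4 and 36.0 CPM at ZT12. Knockout mice had 30.3, 29.3, 29.7 and 29.1 CPM at ZT0, against 28.0, 33.0, 24.6, 31.9 and 29.2 CPM at ZT12. The ZT0 groups were narrow and the ZT12 groups wide, with SDs of 1.09 and 0.537 CPM at ZT0 and of 4.32 and 3.32 CPM at ZT12 in control and knockout mice. The difference in spread itself was not tested. Control ZT12 was 0.12 above control ZT0 on the log2 scale (limits -0.06 and 0.31, edgeR adjusted p = 0.489). At ZT0 knockout mice averaged 29.6 and control mice 28.0 CPM, an edgeR log2 difference of 0.08 (limits -0.13 and 0.29, adjusted p = 0.944). The exact permutation p was 0.0381, two-sided and unadjusted, 1 of 3 under 0.05 among 32 such tests over the members.

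The 2 kinases were compared within each mouse. *Csnk1d* had 1.24 to 2.22 reads per read of *Csnk1e*, with a median of 1.81 over the 21 mice, and 1.63 to 2.91 per length. *Csnk1d* was thus the higher of the pair in every mouse on both scales. The ratio had a mean of 1.94 ± 0.170 (SD, n = 6) in control mice at ZT0 and 1.66 ± 0.290 (SD, n = 6) at ZT12. Its log2 difference of -0.24 was not past the threshold (exact permutation p = 0.0779, Benjamini-Hochberg adjusted p = 0.363 over the 12 ratio tests). Control ZT12 replicates 2 and 4 had the lowest ratios, 1.24 and 1.36, and the other 4 control mice at ZT12 had 1.74 to 1.92. It ranged from -0.28 to -0.16 as single mice were left out. The exact permutation p before adjustment was under 0.05 in 1 of those fits, without control ZT0 replicate 6 (-0.27, p = 0.0303).

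*Fbxw11* encodes β-TrCP2 and lies at chr11:32642724-32746816 (plus strand). Its lowest, median and highest levels in control mice were 35.2, 40.3 and 44.6 CPM at ZT0, against 25.3, 33.8 and 44.8 CPM at ZT12. Knockout mice had 37.6, 48.0, 33.2 and 39.6 CPM at ZT0, against 40.9, 34.1, 39.0, 38.5 and 35.5 CPM at ZT12. Control mice at ZT12 fell into 3 mice at 25.3, 27.9 and 28.3 CPM and 3 mice at 39.2, 39.4 and 44.8 CPM, of which the first 2 lay within the range of control ZT0 and the third just above it. The difference by time in control mice was -0.23 (SE 0.12, limits -0.47 and 0.02, edgeR adjusted p = 0.316). It ranged from -0.32 to -0.15 as single mice were left out.

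The low *Fbxw11* levels lay in the mice with the highest immunoglobulin shares. Control ZT12 replicates 2, 4 and 5 had shares of 63.6%, 59.5% and 59.1%, and knockout ZT0 replicate 3, at 33.2 CPM of *Fbxw11*, had 59.4%. These were the 4 highest shares and the 4 lowest *Fbxw11* levels of the 21 mice. Of all 20256 genes, 650 (3.21%) had levels in these 4 mice that did not overlap those of the other 17, and 394 (1.95%) were lower in them. In the other 17 mice the share was 51.5% to 55.7% and *Fbxw11* 34.1 to 48.0 CPM. With the immunoglobulin share as a covariate in edgeR, the *Fbxw11* difference by time in control mice was 0.049 (SE 0.11, adjusted p = 0.944). In control mice the share was 51.5% to 53.3452% at ZT0 and 53.3455% to 63.6% at ZT12, without overlap. The fit with this covariate therefore cannot fully separate the share from time. With immunoglobulin genes removed from the table the *Fbxw11* difference by time in control mice was -0.22. The part of this share in the *Fbxw11* levels was not tested beyond these fits. The other 7 genes had overlapping levels in the 4 and the 17 mice.

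**Figure D2:**
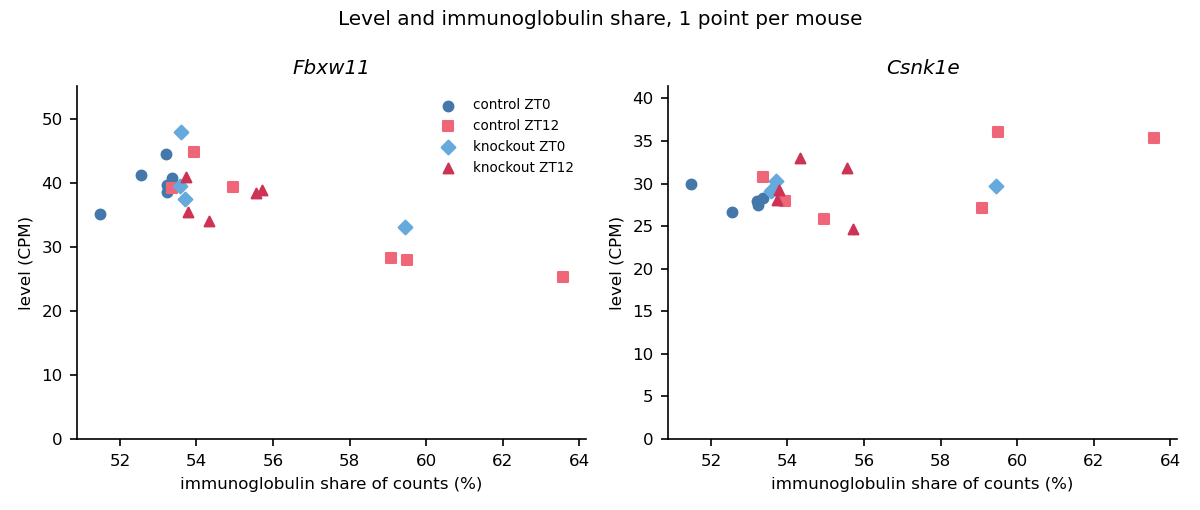
Levels of *Fbxw11* (left) and *Csnk1e* (right) in CPM against the percentage of a library's counts on immunoglobulin genes, 1 point per mouse. The 4 mice with shares from 59.1% to 63.6% had *Fbxw11* levels of 25.3 to 33.2 CPM, below the other 17, while their *Csnk1e* levels of 27.2 to 36.0 CPM overlapped the rest.

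*Btrc* encodes β-TrCP1 and lies at chr19:45363734-45530013 (plus strand). It had the fewest reads of the 8 genes, 59 to 139 per mouse. Its levels ran from 4.95 to 7.19 CPM in control mice at ZT0 and from 4.73 to 7.50 CPM at ZT12, and from 5.80 to 7.09 and from 4.22 to 8.14 CPM in knockout mice. All 4 ranges overlapped. The log2 difference by time was 0.02 in control mice (limits -0.31 and 0.35, edgeR adjusted p = 0.970) and -0.12 in knockout mice (limits -0.51 and 0.27, edgeR adjusted p = 0.907). The latter was -0.27 without knockout ZT12 replicate 3 and -0.034 without knockout ZT12 replicate 5. The *Btrc* model contains an antisense processed pseudogene, *Gm6807*, and shares 4 windows of 50 bases with *Rpl6*, a gene with 90800 counts over all mice. How reads from such shared stretches were assigned is not stated. *Btrc* had 0.119 to 0.252 reads per read of *Fbxw11* in single mice and 0.030 to 0.065 per length, so *Fbxw11* was the higher F-box gene of the pair in every mouse. This ratio averaged 0.159 ± 0.0163 (SD, n = 6) in control mice at ZT0 and 0.195 ± 0.0408 (SD, n = 6) at ZT12 (log2 difference 0.28, exact permutation p = 0.0801, adjusted p = 0.363). That difference ranged from 0.20 to 0.37 as single mice were left out. The exact permutation p before adjustment was under 0.05 in 1 of those fits, without control ZT12 replicate 1 (0.37, p = 0.0130).

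**Figure D3:**
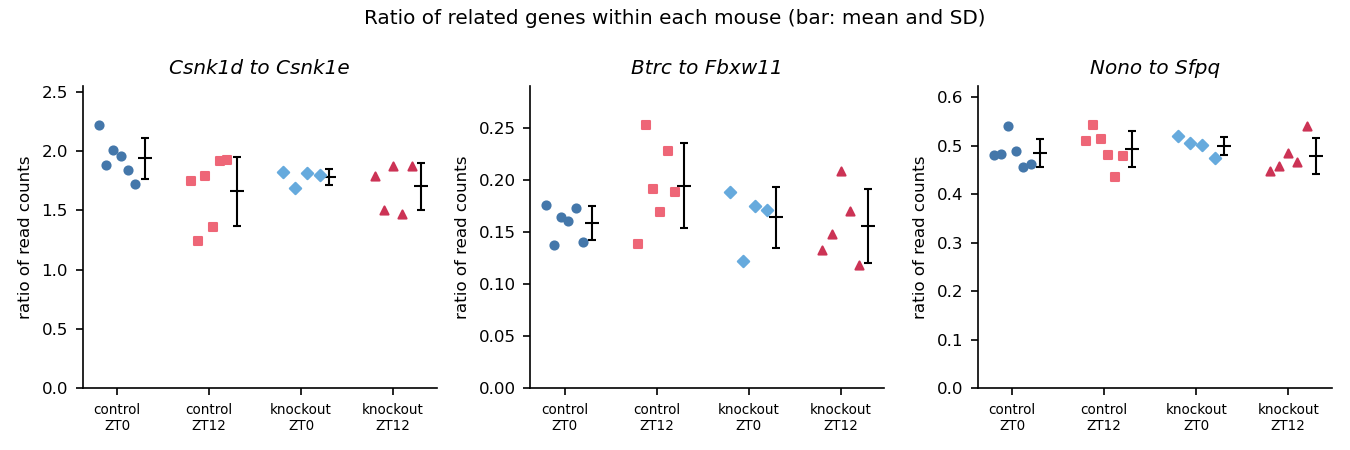
Ratio of read counts within each mouse for *Csnk1d* to *Csnk1e*, *Btrc* to *Fbxw11* and *Nono* to *Sfpq*, 1 point per mouse, with the mean and SD of each group as bars. The medians over 21 mice were 1.81, 0.171 and 0.482, and the 4 groups overlap in each panel.

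*Nampt* lies at chr12:32819545-32853349 (plus strand). Control mice had a lowest, median and highest level of 15.9, 18.8 and 19.4 CPM at ZT0, and of 18.0, 19.4 and 22.9 CPM at ZT12. Knockout mice had 22.4, 14.4, 17.3 and 19.6 CPM at ZT0, against 15.9, 22.2, 18.5, 18.8 and 18.2 CPM at ZT12. The 2 control groups overlapped, and the knockout values at ZT0 enclosed all those of control ZT0. The difference by time was 0.12 in control mice (limits -0.09 and 0.33, edgeR adjusted p = 0.566) and 0.02 in knockout mice (limits -0.23 and 0.27, edgeR adjusted p = 0.986). The lincRNA *Gdap10*, with 503 counts against 6576, lies inside *Nampt* on the same strand.

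*Sirt1* lies at chr10:63319005-63381704 (minus strand). Its transcripts share windows of 50 bases with 33 other genes, up to 60913 counts in one of them, so its counts may hold reads of other genes. Control mice had a lowest, median and highest level of 26.3, 29.0 and 37.1 CPM at ZT0, and of 25.4, 27.3 and 32.8 CPM at ZT12. Knockout mice had 26.8, 20.2, 26.0 and 24.2 CPM at ZT0, against 31.0, 29.9, 24.1, 23.8 and 26.2 CPM at ZT12. At ZT0, 3 of the 4 knockout mice lay below the lowest control mouse, and the highest knockout mouse (26.8 CPM) lay just above that control mouse (26.3 CPM). The means were 29.9 ± 4.05 CPM (SD, n = 6) in control mice and 24.3 ± 2.96 CPM (SD, n = 4) in knockout mice. The edgeR log2 difference was -0.30 (SE 0.12, limits -0.54 and -0.06), with an unadjusted p of 0.0158 and an adjusted p of 0.926, so it did not pass. The exact permutation p was 0.0286, two-sided and unadjusted, the smallest of 32 such tests made over the members, of which 3 were under 0.05. The difference stayed between -0.35 and -0.21 as single mice were left out. At ZT12 it was -0.08 (limits -0.30 and 0.14, edgeR adjusted p = 0.860), and the change by time differed between genotypes by 0.22 (limits -0.11 and 0.55, edgeR adjusted p = 0.611), or by 0.13 without knockout ZT0 replicate 2.

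*Usp2* lies at chr9:44067021-44095627 (plus strand) and had the widest spread of the 8 genes. Control mice at ZT0 lay between 7.60 and 9.70 CPM, with a median of 8.19. Control mice at ZT12 lay between 6.39 and 17.0 CPM, with a median of 9.21. Knockout mice had 14.0, 8.74, 10.9 and 7.31 CPM at ZT0, against 6.41, 18.0, 8.74, 7.73 and 8.55 CPM at ZT12. The 4 highest mice, at 18.0, 17.0, 15.8 and 14.0 CPM, were knockout ZT12 replicate 2, control ZT12 replicates 3 and 4 and knockout ZT0 replicate 1, so they came from 3 groups. Every group other than control ZT0 held at least 1 of them, and all groups reached below 9 CPM. The difference by time in control mice was 0.37 (SE 0.25, limits -0.16 and 0.89, edgeR adjusted p = 0.464), limits that correspond to folds of 0.895 and 1.86. Leaving out control ZT12 replicate 3 gave 0.19, and leaving out replicate 1 of that group gave 0.49. The change by time differed between genotypes by -0.42 (limits -1.22 and 0.39, edgeR adjusted p = 0.706). Without knockout ZT12 replicate 2 this value was -0.75 (SE 0.32, edgeR adjusted p = 0.366).

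The within-group SD of *Usp2* was 0.453 on the log2 CPM scale, and among 6935 genes whose mean log2 CPM was over 3 a larger SD was found for 3.26%. *Csnk1d* and *Nono* were at the other end, with SDs of 0.104 and 0.107, and 96.5% and 95.6% of those genes were more variable. Their mean log2 CPM was 5.69 and 6.18, against 3.24 for *Usp2*, and spread was not compared among genes of matched level. The median gene had an SD of 0.203. *Csnk1e* (0.139), *Nampt* (0.166) and *Sirt1* (0.176) lay below it, and *Fbxw11* (0.221) and *Btrc* (0.256, itself below the level minimum at 2.66) above it. Epithelial marker sums in the 4 mice highest for *Usp2* were 186, 257, 146 and 75.2 CPM, in the order given above. The group medians of this sum were 93.1 CPM in knockout ZT12, 133.5 in control ZT12 and 77.2 in knockout ZT0. The mice with the highest sums, 1074 and 540.0 CPM, had *Usp2* levels of 8.58 and 8.55 CPM, in the lower part of its range. A relation between the sums and *Usp2* was not tested beyond a fit with these markers as a covariate.

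*Nono*, on the X chromosome (chrX:101429318-101448591, plus strand), had the highest level. Control mice had a lowest, median and highest level of 66.7, 68.4 and 72.2 CPM at ZT0, and of 65.8, 76.1 and 87.9 CPM at ZT12. Knockout mice had 76.5, 76.0, 66.8 and 71.4 CPM at ZT0, against 66.5, 68.5, 74.8, 73.8 and 82.1 CPM at ZT12. At ZT12, 4 of the 6 control mice lay above the highest control mouse at ZT0, 1 lay below the lowest, and 1 lay inside the range. The difference by time in control mice was 0.14 (SE 0.08, limits -0.02 and 0.30, edgeR adjusted p = 0.357), with an exact permutation p of 0.0498, two-sided and unadjusted, 1 of 3 under 0.05 among 32 such tests. In knockout mice it was 0.01 (limits -0.18 and 0.20, edgeR adjusted p = 0.994). The 2 changes differed by -0.13 (limits -0.38 and 0.12, edgeR adjusted p = 0.705). With the *Xist* level as a covariate the control difference was again 0.14 and the knockout difference 0.0073. Library size in place of TMM gave -0.07 in control mice, where the median of all genes was -0.199 (0.00625 with TMM, a shift of -0.205), so *Nono* lay above that median under both scalings.

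**Figure D4:**
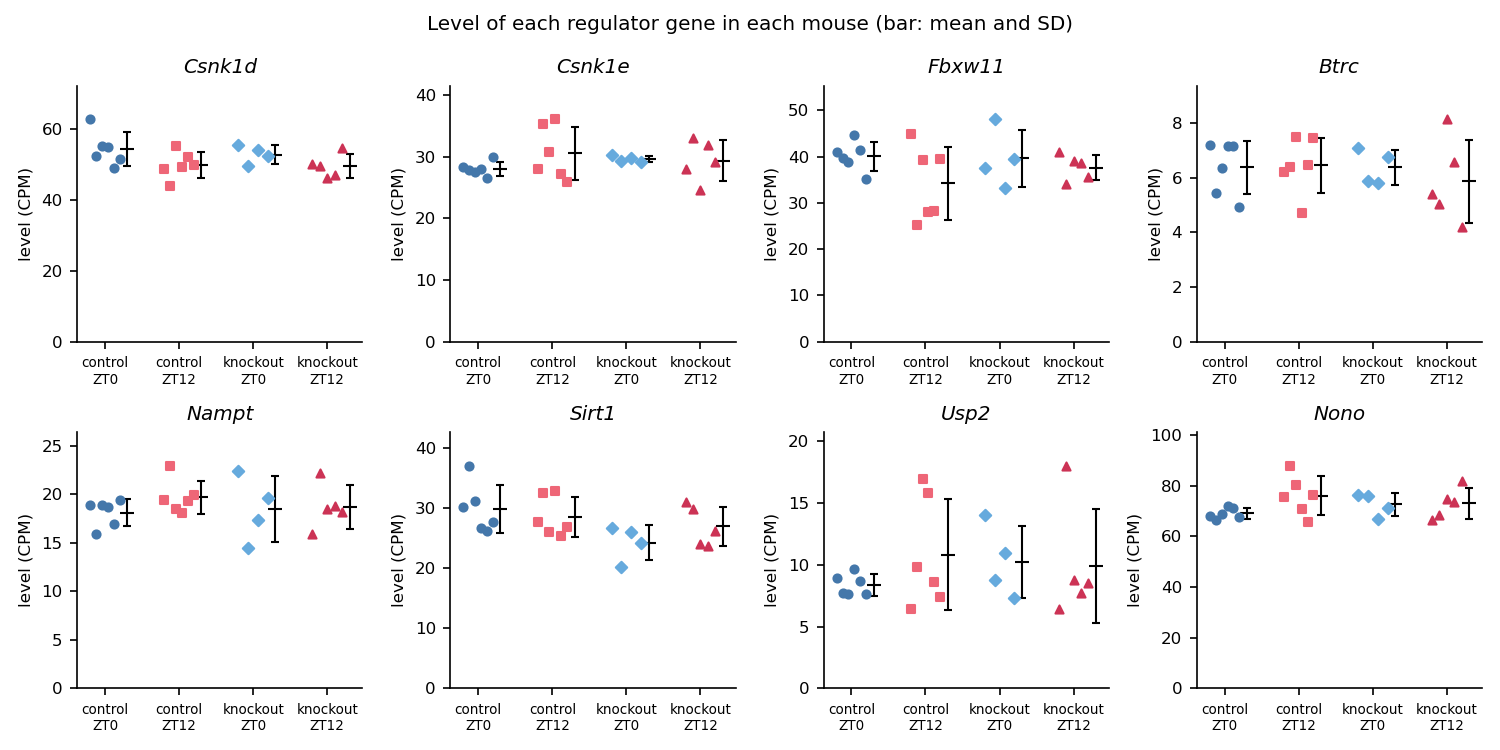
Level in CPM of the 8 regulator genes in each mouse by group, with the mean and SD as bars beside the points. *Usp2* spans 6.39 to 18.0 CPM with high mice in 3 groups, and *Csnk1d* spans 43.9 to 62.6 CPM.

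Beside the members, the share of all genes called in each comparison gave the background. By time in control mice 350 of 20256 genes were called (1.73%, and 18.1% at an unadjusted p under 0.05), and 0 of the 8 members were called or under 0.05 unadjusted. By time in knockout mice the shares of all genes were 0% and 8.01%, and for the difference between the changes 0% and 10.8%, again with 0 of the 8 members in each. In these 2 comparisons edgeR called no gene, while 1622 and 2191 genes had an unadjusted p under 0.05 and DESeq2 called 64 and 3. By genotype the shares were 0.00987% (2 genes) and 4.9% at ZT0, with *Sirt1* the single member under 0.05 unadjusted, and 0.0148% (3 genes) and 8.83% at ZT12, with 0 members. The members' median absolute log2 difference by time was 0.124 in control and 0.062 in knockout mice, against 0.316 and 0.264 over all genes tested, most of which had fewer reads. The limits of every member lay within 2-fold in the 4 direct comparisons, and *Usp2* alone passed 2-fold in the difference between the changes. The comparisons share samples and are not independent of each other.

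**Figure D5:**
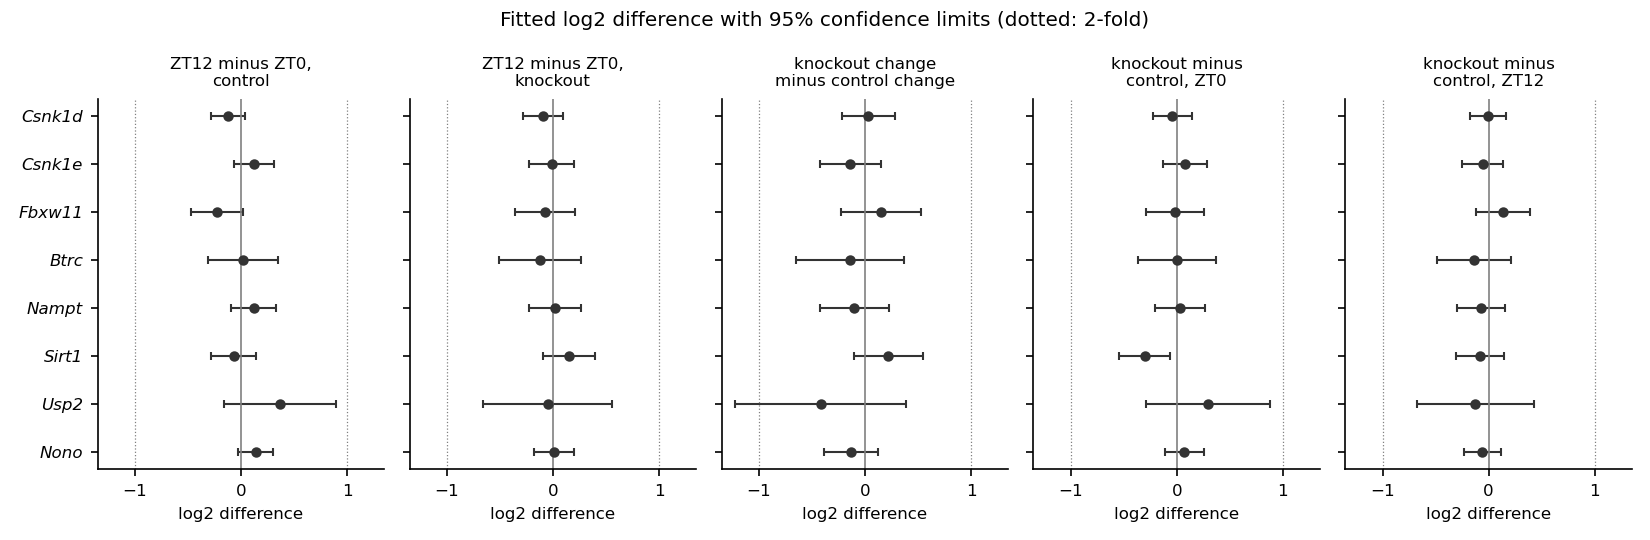
Fitted log2 difference (point) with its 95% limits (bar) for the 8 genes in the 5 comparisons, with dotted lines at 2-fold. The limits of 39 of the 40 differences include 0, the exception being *Sirt1* by genotype at ZT0 (-0.54 to -0.06), whose adjusted p was 0.926.

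Other genes of the same pathways were counted from lists of related proteins. Of 19 other kinases and phosphatases of clock proteins, 0 were called by edgeR in any comparison. By time in control mice 6 had an unadjusted p under 0.05, which 18.1% of all genes reached. *Csnk1a1*, another PER kinase, had a log2 difference of -0.06 by time in control mice (SE 0.08, edgeR adjusted p = 0.703). *Gsk3b*, a kinase of several clock proteins, had -0.43 (SE 0.17, edgeR adjusted p = 0.199). Of 18 ubiquitin ligase and deubiquitinase genes, 0 were called in any comparison and 6 were under 0.05 unadjusted by time in control mice. *Usp7*, which deubiquitinates CRY, had -0.12 (SE 0.09, edgeR adjusted p = 0.501). Of 17 tested NAD enzymes, 0 were called in any comparison and 3 were under 0.05 unadjusted by time in control mice, and *Nmnat1*, which acts after NAMPT, had -0.24 (SE 0.19, edgeR adjusted p = 0.517).

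Among 13 partners of NONO, 1 was called, by time in control mice. In that comparison 3 were higher and 4 lower at an unadjusted edgeR p under 0.05, which 18.1% of all genes reached. *Pspc1*, a paraspeckle protein of the same family as NONO, fell by 0.49 on the log2 scale (SE 0.12, edgeR adjusted p = 0.0408). Its levels were 17.2 to 26.6 CPM at ZT0 and 11.2 to 17.3 CPM at ZT12, which overlapped at their edges. The *Pspc1* call was lost in 14 of 35 settings, and in 9 of the 21 that left out 1 mouse (control ZT0 replicates 1, 2, 3, 5 and 6, control ZT12 replicates 2, 4 and 5 and knockout ZT12 replicate 1), with edgeR adjusted p from 0.0512 to 0.122 there and log2 differences from -0.53 to -0.41. In knockout mice its difference was -0.06 (SE 0.14, edgeR adjusted p = 0.945), and the 2 changes differed by 0.43 (edgeR adjusted p = 0.444), which did not pass. *Sfpq*, the other family member, had 0.11 (SE 0.07, edgeR adjusted p = 0.449) in control mice, and *Nono* had 0.436 to 0.542 reads per read of *Sfpq* in every mouse. Of 10 chromatin regulators of clock proteins 0 were called in any comparison, and 3 were under 0.05 unadjusted by time in control mice. Of 21 core clock genes, *Tef*, an output activator, rose by 0.71 (SE 0.09, edgeR adjusted p = 0.000438) and *Arntl* fell by 0.78 (SE 0.15, edgeR adjusted p = 0.0149) by time in control mice. At an unadjusted edgeR p under 0.05, 7 of the 21 were higher and 1 was lower by time in control mice. The *Arntl* call by time was lost without control ZT0 replicate 2 (log2 difference -0.75, edgeR adjusted p = 0.0529) and with the epithelial covariate (-0.69, edgeR adjusted p = 0.0635). With the immunoglobulin share as a covariate no gene was called by edgeR by time in control mice, and 1648 genes had an unadjusted p under 0.05. The log2 difference in that edgeR fit was -0.34 for *Pspc1* (adjusted p = 0.530), -0.85 for *Arntl* (adjusted p = 0.123) and 0.61 for *Tef* (adjusted p = 0.0508). The share did not overlap between control mice at ZT0 and at ZT12, so that fit cannot fully separate it from time.

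The genes with levels most like each member over the 21 mice were named by Pearson's r of log2 CPM, as a description of mice that share groups and libraries. For *Fbxw11* they were *Phf20* (r = 0.916) and *Helz2* (r = 0.897), and for *Usp2* *Zyx* (r = 0.88) and *Trnt1* (r = 0.88). *Zyx* ranged from 23.0 to 33.0 CPM in control mice at ZT0 and from 21.2 to 70.7 CPM at ZT12. The best matches of the other 6 genes had lower values, from 0.646 (*Btrc* with *Ift52*) to 0.803 (*Csnk1d* with *Hsd17b12*).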

How the data were processed

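RNA of IgA+ PCs from 21 mice was sequenced from poly-A selected libraries made with a NEB Next Ultra kit, and the authors deposited the raw count of reads per gene, without normalization. The aligner, the counter and strand setting are not given in the sources used here. The gene coordinates were those of GRCm38, since 52105 of 53706 genes matched to GENCODE M21 had the same chromosome, start and end. Exonic lengths came from the deposited table and were used for levels per kilobase.

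The filter removed genes with fewer than 10 counts summed over all mice, TMM factors were computed, and the 4 group means were fitted together by robust quasi-likelihood in edgeR 4.0.16 (R 4.3.3). Benjamini-Hochberg adjustment covered all genes tested, with a threshold of 0.05. Exact permutation tests on mean log2 CPM (prior count 2) were two-sided and enumerated all splits of the mice. Their smallest possible p-value was 0.00216 for 6 against 6 mice, and larger where a group was smaller. The 3 ratios were tested in the same way, each within mice. The edgeR and DESeq2 fits by time were checked on simulated counts, with planted changes larger than any main member difference reported here. No such check was made of the permutation tests, the ratio tests or the other comparisons. Alternatives were DESeq2 1.42.0, other scalings and filters, a threshold of 0.01, own groups only, a replicate block, covariates for the immunoglobulin share, epithelial markers or *Xist*, removal of gene length trends (lowess span 0.5) and each mouse left out.

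Genes were named by a rule: the 8 members, every gene called in the related lists, *Csnk1a1*, *Gsk3b*, *Usp7*, *Nmnat1*, *Sfpq* and *Pspc1*, and the 2 genes most like each member by Pearson's r among those with a mean log2 CPM over 3. A gene that the rule also named is not reported here. The members and lists were chosen with earlier results of these data known. At these depths the members had from 59 counts (*Btrc*) to 1695 counts (*Nono*) per mouse, and the reads carry no molecular identifiers. Each library comes from 1 animal by the series' design text.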

Additional observations from a re-analysis of the deposited data

Results flagged for a closer look

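The *Usp2* level of 18.01 CPM in knockout ZT12 replicate 2 stood far from the other 4 mice of its group, of which the nearest was at 8.742 CPM. The gap was 0.799 of the group's range, above Dixon's critical value of 0.71 for 5 samples. It was the only outlier among the 32 groups of member levels tested, where chance marks about 1 group in 20. Without that mouse the *Usp2* log2 difference by time in knockout mice was -0.38 (edgeR adjusted p = 0.686), in place of -0.05, and the difference between genotypes at ZT12 was -0.46 (edgeR adjusted p = 0.497), in place of -0.12. *Zyx* was also highest in its group there, at 74.1 CPM. It was picked for its likeness to *Usp2* over these same mice, so its level is not separate evidence. The cause was not tested.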

How the results depend on the processing

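No member was called under any setting, in 1344 fits. Signs changed in 74 fits, over 28 of the 40 member differences, all with a main log2 difference of at most 0.228. The cause was not tested. Library size in place of TMM moved the median of all genes by -0.205 (control time), 0.177 (interaction) and 0.128 (genotype ZT12), and turned the log2 difference to -0.17 (*Btrc*), -0.10 (*Csnk1e*), -0.097 (*Nampt*) and -0.070 (*Nono*) by time in control mice, to -0.014 (*Nampt*) and -0.019 (*Nono*) by time in knockout mice, to 0.014 (*Btrc*), 0.064 (*Csnk1e*), 0.083 (*Nampt*) and 0.052 (*Nono*) in the interaction, to -0.037 (*Btrc*) and -0.019 (*Nampt*) by genotype at ZT0, and to 0.12 (*Csnk1d*), 0.088 (*Csnk1e*), 0.064 (*Nampt*), 0.076 (*Nono*) and 0.063 (*Sirt1*) at ZT12. The immunoglobulin share as a covariate gave 0.049, -0.14, 0.12 and -0.021 for *Fbxw11* (control time, interaction, genotype ZT0 and ZT12), -0.030 for *Csnk1d* (interaction) and 0.0071 for *Csnk1e* (genotype ZT12). Removing length trends gave -0.044 for *Csnk1d* (interaction), -0.0062 for *Nampt* and -0.0078 for *Nono* (knockout time), and the epithelial covariate 0.0041 for *Csnk1e* (knockout time).

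Deviations from the group means in same-numbered mice had r from -0.41 to 0.408. These values were not compared with those of differently numbered mice, so they cannot tell whether the numbers pair mice. With the replicate block 183 genes were called by time in control mice, 0 of them members, and signs changed for *Btrc* (-0.024, genotype ZT0) and *Csnk1e* (0.0036, knockout time).

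With single mice left out, 35 of the 40 member differences moved by over 1.5 times, none of them called. Sign changes occurred within these ranges: *Btrc* -0.042 to 0.093 (control time) and -0.054 to 0.051 (genotype ZT0), *Csnk1d* -0.064 to 0.011 (genotype ZT0), -0.053 to 0.017 (genotype ZT12) and -0.026 to 0.056 (interaction), *Csnk1e* -0.11 to 0.00075 (genotype ZT12) and -0.058 to 0.045 (knockout time), *Fbxw11* -0.11 to 0.058 (genotype ZT0) and -0.15 to 0.017 (knockout time), *Nampt* -0.079 to 0.14 (genotype ZT0) and -0.096 to 0.12 (knockout time), *Nono* -0.047 to 0.032 (knockout time), *Sirt1* -0.11 to 0.0073 (control time), and *Usp2* -0.46 to 0.044 (genotype ZT12) and -0.38 to 0.13 (knockout time). Log2 ratios ranged, for *Csnk1d* to *Csnk1e*, from -0.28 to -0.16 (control time), -0.15 to -0.078 (genotype ZT0) and -0.035 to 0.096 (genotype ZT12), for *Btrc* to *Fbxw11*, from 0.20 to 0.37 (control time), -0.22 to 0.0051 (knockout time), -0.035 to 0.17 (genotype ZT0) and -0.44 to -0.23 (genotype ZT12), and for *Nono* to *Sfpq*, from -0.0039 to 0.059 (control time). All 12 ratio tests were repeated with each mouse of their groups left out in turn. Over all of these repeats, unadjusted exact permutation p-values were under 0.05 in 4, the smallest 0.0130.

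Over all genes, calls by time in control mice numbered 350, and 1073 with DESeq2, 865 with DESeq2 on own groups (added after seeing the data), 38 on own groups, 14 at a threshold of 0.01, 57 with the epithelial and 0 with the immunoglobulin covariate, and from 31 (without control ZT0 replicate 2) to 944 (without control ZT12 replicate 1). The immunoglobulin share did not overlap between control ZT0 and control ZT12, so the fit with it cannot fully separate share from time there. By time in knockout mice 0 became 64 with DESeq2, 49 with DESeq2 on own groups, 1 without a count filter or with the immunoglobulin covariate, and 0 to 1 as mice were left out. The interaction's 0 became 3 with DESeq2, 1 without length trends and 0 to 1 as mice were left out. By genotype at ZT0 2 became 5 with DESeq2, 26 with DESeq2 on own groups and 4 without length trends, and at ZT12 3 became 7 and 5 with DESeq2 on all and on own groups. *Btrc*, at 59 to 139 reads per mouse, is the member most limited by depth.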
